A study of Oryza sativa with 10 samples.

Results

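Rice roots take up potassium and keep sodium out through a small set of well studied membrane transporters. The RNA level of 6 of their genes was followed in roots of lines made to overexpress a NAC transcription factor. The 6 loci were chosen by identifier among 37869 annotated loci: Os01g0648000 (OsAKT1), Os04g0401700 (OsHAK1), Os01g0930400 (OsHAK5), Os06g0701600 (listed here under the name OsHKT2;1), Os01g0307500 (OsHKT1;5) and Os12g0641100 (OsSOS1). They lie on chromosomes 1, 4, 6 and 12, as their RAP identifiers encode. The level of a locus is its FPKM, a count of sequenced fragments scaled by transcript length and by the mapped reads of the library, summed over the annotated transcripts of the locus.

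The study compared roots of 4 transgenic groups and of NT (nontransgenic plants), all of the japonica cultivar Illmi and labelled as 20 days old. The transgenic groups were RCc3:myc-OsNAC5, RCc3:OsNAC6-myc, RCc3:myc-OsNAC9 and RCc3:OsNAC10-myc, called OsNAC5, OsNAC6, OsNAC9 and OsNAC10 lines here. RCc3 is a promoter active in roots, and each OsNAC coding sequence carried a MYC tag. Every group had 2 libraries, described as biological replicates, and all 4 lines were set against the same 2 NT libraries. According to the study's methods, seedlings of every group spent their last days before harvest under water in the greenhouse, whereas the labels speak of normal growth conditions. No salt or potassium treatment is described for any group. The plants carried forward were those with the most tagged protein, and the number of lines used for the RNA libraries of a group is not stated. A group may be a single insertion event, and each contrast is between plant lines, in which more than the OsNAC gene can differ.

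The libraries held between 730218 and 789304 FPKM in total, and the number of reads behind each library was not analysed here. Relative depth, read from the smallest values, ranged from 0.933 to 1.57 of that of NT replicate 1. The OsNAC gene of each line was higher in both of its own libraries than in any library of the other groups. The ratio of mean FPKM over NT was 3.27 for OsNAC5, 1.30 for OsNAC6, 9.72 for OsNAC9 and 1.28 for OsNAC10. In OsNAC6 and OsNAC10 this ratio was under the 1.5 fold used for calls below. Replicates of a group correlated with r between 0.986 in OsNAC6 and 0.997 in NT, across loci. Markers of root (the RCc3 gene, the silicon transporters and an iron transporter) summed to between 2819 and 4041 FPKM in the 8 line libraries and between 3313 and 3327 FPKM in NT. Markers of green shoot summed to at most 9.75 FPKM in the lines and 9.88 FPKM in NT.

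Potassium enters root cells along its electrical gradient through inward rectifying channels such as AKT1, and against its concentration gradient through HAK transporters, which couple the ion to protons. HKT proteins carry sodium, some of them together with potassium. In rice, OsHKT1;5 takes sodium back out of the xylem sap and so keeps it from the leaves, and SOS1 expels sodium from cells in exchange for protons. Plasma membrane H+-ATPases build the gradient on which most of these proteins depend.

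Roots of all 4 lines held less RNA of 2 potassium uptake genes, OsAKT1 and OsHAK1, than NT roots. RNA of the sodium retrieval gene OsHKT1;5 was higher in OsNAC5, OsNAC6 and OsNAC9 roots. OsHAK5 was above NT in every line library at a low level and did not pass the test in any line, and the sodium exporter OsSOS1 did not pass it either. A change was called when limma gave an adjusted p under 0.05 and at least 1.5 fold on the log2(FPKM + 1) scale. Log2 changes below are line minus NT on that scale, which understates the change of loci with low FPKM.

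In OsNAC5 roots, 1 of 5 tested members was called higher and 2 were called lower, where 1.78% of all 29915 tested loci were called higher and 2.78% lower. The same numbers were found in OsNAC6 roots, with 1 member higher (5.32% of all loci) and 2 lower (7.07%), and in OsNAC9 roots, with 1 higher (4.43%) and 2 lower (4.91%). In OsNAC10 roots 0 members were called higher (4.61%) and 2 lower (9.86%). Under every alternative setting tried, the direction of each called member stayed as given here. OsAKT1 and OsHAK1 were called lower in all 4 lines, a pattern shared by 1.72% of tested loci. OsHKT1;5 was called higher in 3 lines, where 1.69% of tested loci were called higher in at least 3. These 4 counts share their NT libraries. The median change of the 5 members lay between -0.09 and 0.14 in the 4 lines, and in each line it was the value of OsSOS1. Over all tested loci the medians lay between 0.01 and 0.02.

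**Figure D1:**
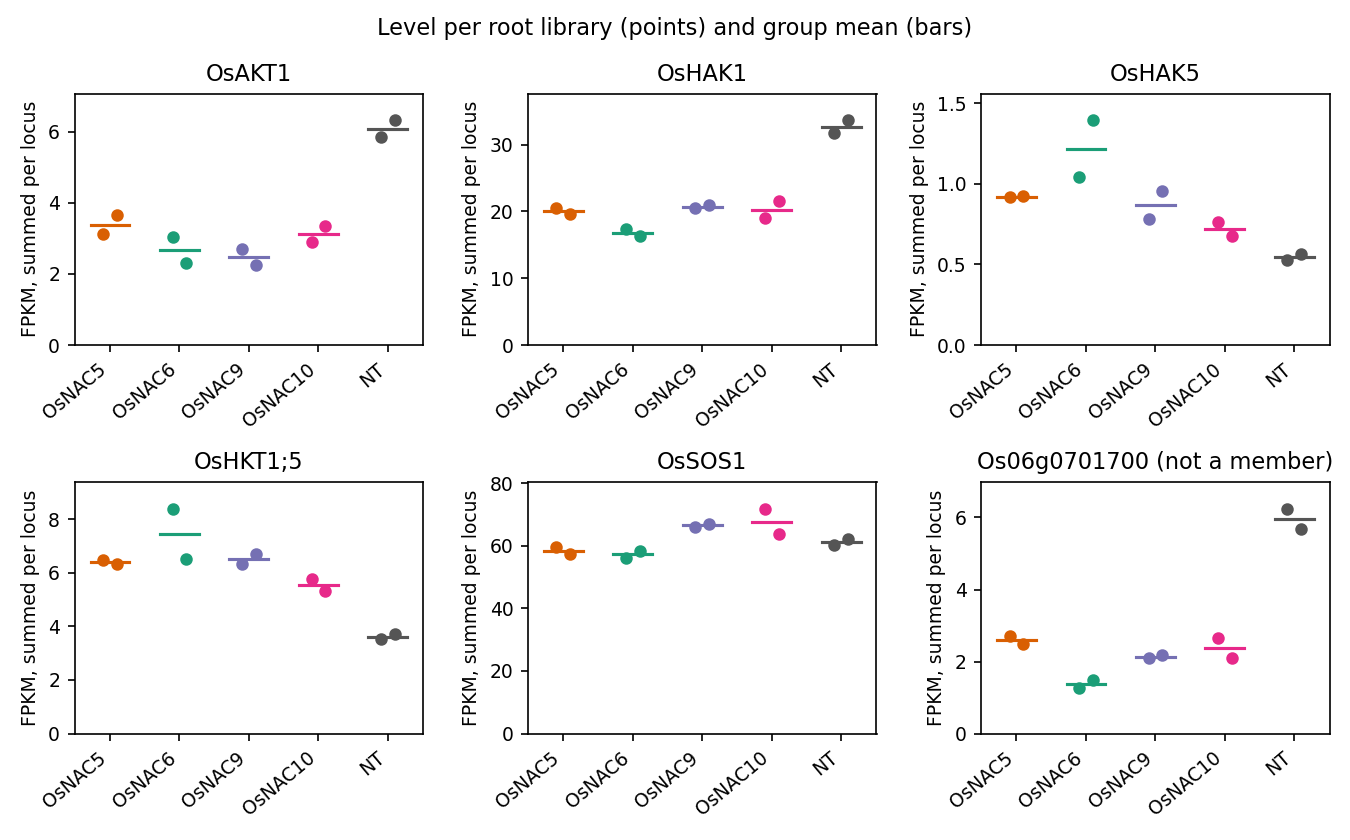
FPKM per library (points, 2 per group) and group mean (horizontal bars) of the 5 expressed members and of the neighbouring locus Os06g0701700, each panel on its own linear axis from 0. OsAKT1 and OsHAK1 lie lower in all 8 line libraries than in NT, OsHKT1;5 lies higher in all 8, and OsSOS1 stays between 56.2 and 71.8 FPKM in every library.

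OsAKT1 encodes the inward rectifying potassium channel of the root, a main route of potassium uptake. Its FPKM was 3.11 and 3.65 in OsNAC5, 3.04 and 2.32 in OsNAC6, 2.69 and 2.25 in OsNAC9, with 2.89 and 3.34 in OsNAC10 roots, against 5.84 and 6.32 in NT roots. All 8 line libraries thus lay below both NT libraries, and the highest of them, OsNAC5 replicate 2, was still well under the lower NT library. The log2 change was -0.69 in OsNAC5 (SE 0.139, adjusted p = 0.0195), -0.95 in OsNAC6 (adjusted p = 0.00212), -1.03 in OsNAC9 (adjusted p = 0.00174) and -0.78 in OsNAC10 (adjusted p = 0.00446), with the same SE in each. Mean FPKM was 55.6%, 44.1%, 40.7% and 51.3% of that of NT in the OsNAC5, OsNAC6, OsNAC9 and OsNAC10 lines. The call in OsNAC5 was lost when either OsNAC5 library or either NT library was left out, which leaves 1 library in that group. The log2 change then lay between -0.78 and -0.60. Among lines, the largest difference was between OsNAC9 and OsNAC5, at -0.34 (95% interval -0.65 to -0.02, adjusted p = 0.260), so that the order of the 4 lines could not be told from the spread.

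OsHAK1 encodes a high-affinity potassium transporter of the HAK family, known in rice for uptake when potassium is low. FPKM summed over its 3 annotated transcripts was 20.5 and 19.7 in OsNAC5, 17.3 and 16.3 in OsNAC6, 20.5 and 21.0 in OsNAC9, with 19.0 and 21.6 in OsNAC10 roots, against 31.7 and 33.6 in NT roots. The lines did not overlap NT, and 3 of the 4 lines shared nearly the same level while both OsNAC6 libraries lay below all the others. The log2 change was -0.67 in OsNAC5 (SE 0.0854, adjusted p = 0.00187), -0.92 in OsNAC6 (adjusted p = 0.000225), -0.63 in OsNAC9 (adjusted p = 0.00178) and -0.66 in OsNAC10 (adjusted p = 0.000983). OsNAC9 exceeded OsNAC6 by 0.29 (95% interval 0.09 to 0.48), the largest difference among lines, which did not pass the test (adjusted p = 0.142). In OsNAC10 the change was -0.58 without OsNAC10 replicate 1, and likewise when libraries were centred on their median, which is just under the fold required.

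The 3 transcripts of OsHAK1 differed in how their values were spread over the libraries. Transcript Os04t0401700-01 had 16.5 and 15.6 FPKM in OsNAC5, 16.4 and 9.35 in OsNAC6, 14.6 and 19.5 in OsNAC9, with 9.82 and 6.25 in OsNAC10 roots, against 26.9 and 29.3 in NT roots. It carried 84.9% and 87.0% of the locus in NT and 29.0% to 94.8% in line libraries. Transcript Os04t0401700-02 stood at 7.80 and 14.0 FPKM in OsNAC10, at 5.35 in OsNAC6 replicate 2, at 3.68 in OsNAC9 replicate 1 and at 0.883 in OsNAC5 replicate 1, and was near 0 in the other line libraries and in both NT libraries. Only in OsNAC10 did both replicates assign it an appreciable share, 41.2% and 65.0% of the locus, and in the other 3 lines the replicates disagreed on whether it was there at all. How the authors' quantification divided reads between overlapping transcripts is not given in the sources used here, and its part in this pattern was not tested. Read on the transcript with the highest mean alone, OsHAK1 was at -0.77 in OsNAC5 (adjusted p = 0.139) and -0.70 in OsNAC9 (adjusted p = 0.104), neither called. It was lower in OsNAC6 (-1.11, adjusted p = 0.0176) and OsNAC10 (-1.71, adjusted p = 0.00234). OsNAC10 was then also below OsNAC9 (-1.01, adjusted p = 0.0396) and OsNAC5 (-0.94, adjusted p = 0.0477), whereas the locus sums of these lines were nearly equal.

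**Figure D2:**
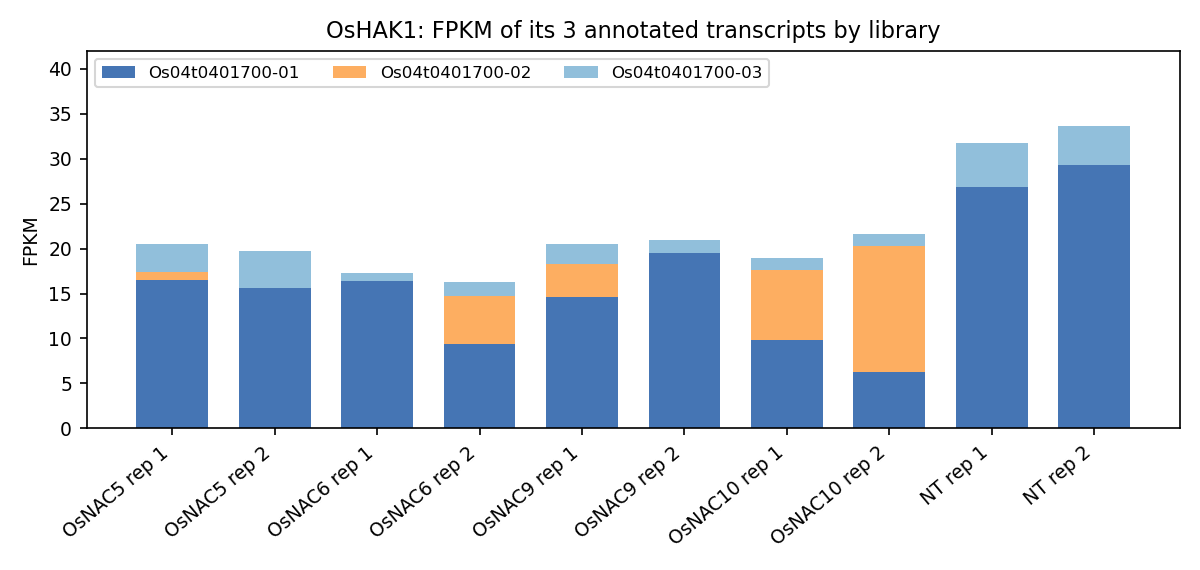
FPKM of the 3 annotated OsHAK1 transcripts (stacked colours) in each of the 10 libraries, on a linear axis from 0. The whole bar is the locus level, lower in all 8 line libraries (16.3 to 21.6 FPKM) than in NT (31.7 and 33.6 FPKM), and transcript Os04t0401700-02 is visible in both OsNAC10 libraries and in 1 library of each other line.

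OsHAK5 encodes another potassium transporter of the HAK family, which in rice acts in uptake at low potassium and in its passage to the shoot. It was scarce in these roots, with 0.916 and 0.925 FPKM in OsNAC5, 1.04 and 1.39 in OsNAC6, 0.781 and 0.956 in OsNAC9, with 0.761 and 0.677 in OsNAC10, against 0.530 and 0.562 in NT. Every line library was above both NT libraries, OsNAC6 the farthest and OsNAC10 the nearest. The log2 change was 0.31 in OsNAC5 (adjusted p = 0.0945), 0.52 in OsNAC6 (SE 0.0943, adjusted p = 0.00586), 0.27 in OsNAC9 (adjusted p = 0.0821) and 0.15 in OsNAC10 (adjusted p = 0.263). The OsNAC6 difference passed on p and missed the fold on this scale, although the mean FPKM there was 2.23 times that of NT. With a pseudocount of 0.1 it was 1.01 (adjusted p = 0.0078) and was called, as it was without OsNAC6 replicate 1 (0.63). OsNAC10 was below OsNAC6 by a log2 difference of -0.36 (95% interval -0.58 to -0.15, adjusted p = 0.0611), which did not pass.

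OsHKT1;5 encodes the sodium transporter of xylem parenchyma. FPKM was 6.47 and 6.34 in OsNAC5, 8.38 and 6.51 in OsNAC6, 6.31 and 6.69 in OsNAC9, with 5.77 and 5.33 in OsNAC10 roots, against 3.52 and 3.71 in NT roots. The lowest line library, OsNAC10 replicate 2, was above both NT libraries, and OsNAC6 replicate 1 stood highest. The gene rose by a log2 change of 0.68 in OsNAC5 (SE 0.123, adjusted p = 0.0119), 0.86 in OsNAC6 (adjusted p = 0.00186) and 0.70 in OsNAC9 (adjusted p = 0.0062). In OsNAC10 it was at 0.50 (adjusted p = 0.0169), which is 1.42 fold on this scale and 1.54 fold as a ratio of mean FPKM, so that it missed the call by the fold, and it was called with a pseudocount of 0.1 (0.60), after median centring (0.59) and after quantile normalization (0.59). The largest difference among lines was that of OsNAC10 from OsNAC6, which did not pass, at -0.36 (95% interval -0.64 to -0.08, adjusted p = 0.133). The call in OsNAC5 was lost when either OsNAC5 or either NT library was left out (adjusted p between 0.0762 and 0.102), and the call in OsNAC9 without NT replicate 1 (adjusted p = 0.0543).

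OsSOS1, the plasma membrane Na+/H+ antiporter, was the most abundant member. It had 59.5 and 57.5 FPKM in OsNAC5, 56.2 and 58.3 in OsNAC6, 66.1 and 67.0 in OsNAC9, with 71.8 and 63.6 in OsNAC10 roots, against 60.2 and 62.0 in NT roots. Both OsNAC5 and both OsNAC6 libraries were slightly below NT, and all OsNAC9 and OsNAC10 libraries slightly above it. The log2 change was -0.06 in OsNAC5 (95% interval -0.24 to 0.11), -0.09 in OsNAC6 (-0.27 to 0.08), 0.12 in OsNAC9 (-0.05 to 0.29) and 0.14 in OsNAC10 (-0.03 to 0.32), with adjusted p between 0.196 and 0.712. These intervals leave out a change of 1.5 fold in either direction. OsNAC10 exceeded OsNAC6 by 0.24 (95% interval 0.06 to 0.41, adjusted p = 0.114), the largest difference among lines.

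**Figure D3:**
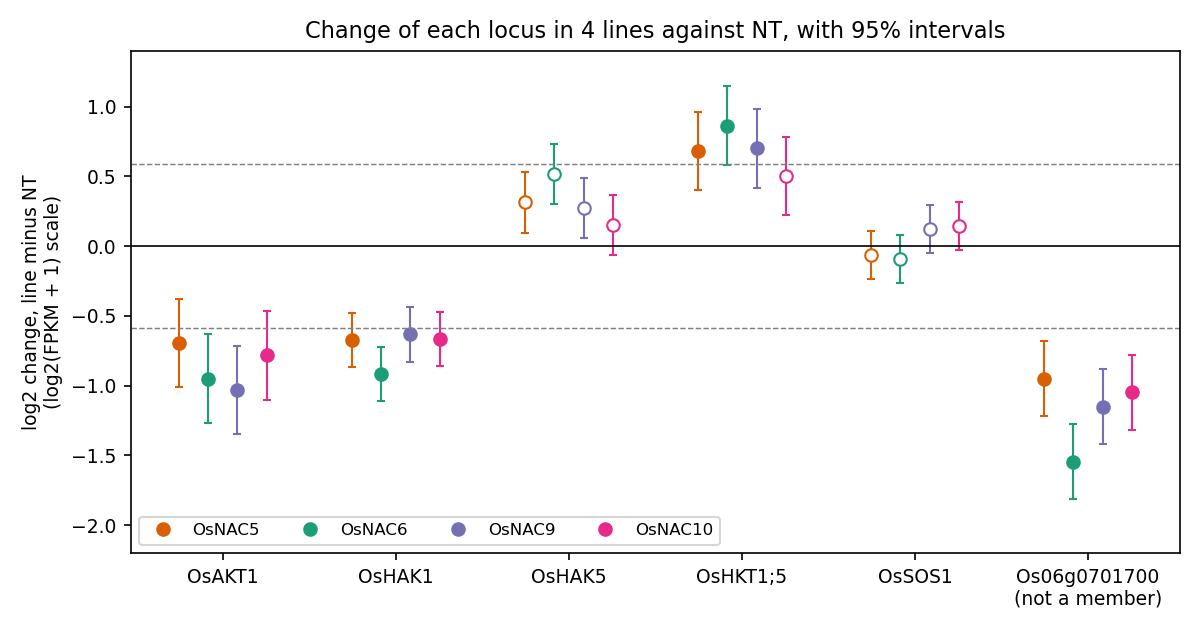
Log2 change of each locus in each line minus NT, on the log2(FPKM + 1) scale, from the limma fit (points) with 95% intervals (bars). Filled points were called, open points were not, and dashed lines mark 1.5 fold. OsAKT1 and OsHAK1 lie below the lower dashed line in all 4 lines, OsHKT1;5 lies above the upper one in 3, and OsSOS1 lies around 0.

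Os06g0701600, the member listed as OsHKT2;1, was at 0 FPKM in 9 of 10 libraries and at 0.0215 in OsNAC9 replicate 1. It was left out of the test, which asked for a value above 0 in all 10 libraries, and 5 of the 6 members passed that filter. The deposited table describes the locus as a cation transporter family protein and gives it no HKT name. Its neighbour by identifier, Os06g0701700, is described there as an ion transporter with Na+/K+ symport and was expressed. The RefSeq table of rice genes (assembly ASM3414082v1) holds 2 HKT genes on chromosome 6, HKT2;1 and HKT2;4. It matches 0 of the 6 members by identifier, so that which of these loci bears the name OsHKT2;1 was not settled here. Among its synonyms, the clone-based number of HKT2;4 comes just before that of HKT2;1. If these numbers run in the order of the RAP identifiers, Os06g0701700, the expressed locus, would be OsHKT2;1, which was not tested. OsHKT2;1 is known in rice for sodium uptake into potassium-starved roots.

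The neighbour Os06g0701700 is therefore given beside the members and is not counted among them. Its FPKM was 2.70 and 2.50 in OsNAC5, 1.27 and 1.49 in OsNAC6, 2.09 and 2.17 in OsNAC9, with 2.66 and 2.09 in OsNAC10 roots, against 6.24 and 5.68 in NT roots. All 8 line libraries were below NT and the OsNAC6 libraries were lowest. It fell by 0.95 on the log2 scale in OsNAC5 (SE 0.118, adjusted p = 0.00163), by 1.55 in OsNAC6 (adjusted p = 7.1e-05), by 1.15 in OsNAC9 (adjusted p = 0.000393) and by 1.05 in OsNAC10 (adjusted p = 0.000498). OsNAC6 was also below OsNAC5, at -0.60 (adjusted p = 0.0269), a call that was lost under several alternatives, among them leaving out either NT library (adjusted p = 0.0577 and 0.0581).

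In a comparison of every line with every other, 0 of the 5 tested members were called in any of the 6 pairs. Over all tested loci, 7.85% were called in OsNAC10 against OsNAC9, 4.16% in OsNAC10 against OsNAC6, 7.74% in OsNAC10 against OsNAC5, 2.29% in OsNAC9 against OsNAC6, 2.89% in OsNAC9 against OsNAC5 and 3.03% in OsNAC6 against OsNAC5. At an unadjusted limma p under 0.05, 11 of the 30 member and pair combinations passed, 4 of them for OsSOS1, 3 for OsHAK1, 2 for OsHAK5 and 1 each for OsAKT1 and OsHKT1;5, where 22.4% of the combinations passed over all tested loci. The lines are therefore not shown to differ in these genes, nor to be alike.

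Set beside each other, the members changed their order in the lines. In NT roots the mean FPKM was 61.1 for OsSOS1, 32.7 for OsHAK1, 6.08 for OsAKT1, 3.61 for OsHKT1;5 and 0.546 for OsHAK5. OsHKT1;5 stood below OsAKT1 in both NT libraries and above it in all 8 line libraries: the ratio of OsHKT1;5 to OsAKT1 was 1.59 to 2.97 in line libraries (median 2.21) against 0.587 and 0.603 in NT. No other pair of members traded places. As a description over the 10 libraries, which share the split between lines and NT, log2(FPKM + 1) of OsAKT1 and OsHAK1 correlated with r = 0.89, OsHAK1 and OsHKT1;5 with r = -0.92, and OsSOS1 with the other 4 members between -0.35 and 0.07.

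The locus most like each member over the 10 libraries, among 24302 loci with a mean of at least 1 FPKM, was an argonaute gene for OsAKT1 (Os03g0682600, r = 0.965), a tetraspanin gene for OsHAK1 (Os08g0260600, r = 0.988), a RING finger gene for OsHAK5 (Os05g0468900, r = 0.960), a subtilisin-like protease gene for OsHKT1;5 (Os03g0242900, r = 0.979) and a jumonji domain gene for OsSOS1 (Os02g0828900, r = 0.958). The tetraspanin gene averaged 56.5, 44.5, 55.0 and 55.6 FPKM in OsNAC5, OsNAC6, OsNAC9 and OsNAC10 roots, against 95.4 FPKM in NT roots. It had the same low point in OsNAC6 as OsHAK1, a likeness for which it was picked over these same libraries. None of these 5 loci, nor the next 2 for each member, was described as an ion transporter.

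These were whole roots, in which fewer cells of a type and less RNA per cell cannot be told apart. Of 3 cellulose synthase genes of the secondary wall, which mark vascular tissue, 2 were lower in all 8 line libraries than in NT, and the sum of all 3 was 19.0 to 25.9 FPKM in the lines against 29.6 and 30.8 FPKM in NT. The other one, Os09g0422500, had 14.4 and 12.7 FPKM in OsNAC6 and 13.2 and 13.8 FPKM in OsNAC10, all above NT, with 9.18 to 10.9 FPKM in OsNAC5 and OsNAC9, against 10.8 and 10.9 FPKM in NT. The summed markers of root hairs were at 11.5 to 16.2 FPKM in the lines against 17.4 and 17.9 FPKM in NT, with 1 of 2 below NT in every line library. The part of these shifts in the lower OsAKT1 and OsHAK1 levels and in the higher OsHKT1;5 level was not tested.

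The other genes of potassium and sodium transport were read from a list of 87 loci taken by family from the deposited descriptions, of which 69 were tested and 13 (18.8%) were called in at least 1 line, where 21.9% of all tested loci were. OsNAC5 roots had 1 higher and 3 lower, OsNAC6 roots 1 and 4, OsNAC9 roots 5 and 3, and OsNAC10 roots 1 and 7. These are 5.80%, 7.25%, 11.6% and 11.6% of the tested loci of the list in the OsNAC5, OsNAC6, OsNAC9 and OsNAC10 lines, and over all tested loci the shares called in either direction were 4.56%, 12.4%, 9.34% and 14.5%. In OsNAC6 and OsNAC10 the list's share was under that of all loci, and in OsNAC5 and OsNAC9 somewhat above it. The list's median log2 change lay between -0.05 and 0.03 in the 4 lines.

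In the HAK/KUP/KT family, to which OsHAK1 and OsHAK5 belong, 5 of 23 tested loci (21.7%) were called in any line, close to the 21.9% over all loci. Os07g0669700, described as potassium transporter 4, was the 1 locus of the list called lower in all 4 lines, as OsAKT1 and OsHAK1 were. It had 28.5 and 27.2 FPKM in OsNAC5, 18.2 and 19.0 in OsNAC6, 22.8 and 22.8 in OsNAC9, with 16.8 and 14.4 in OsNAC10 roots, against 41.2 and 44.1 in NT roots, with log2 changes of -0.60, -1.15, -0.88 and -1.40 (SE 0.0882, highest adjusted p = 0.00429 in OsNAC5). Os09g0448200, described as a high-affinity potassium transporter, fell in OsNAC5 (-0.91) and OsNAC10 (-1.03). Its means were 1.37 FPKM in OsNAC5 and 1.19 in OsNAC10, against 3.45 in NT. Os06g0270200 (potassium transporter 24) went up in OsNAC9, with 16.4 and 17.2 FPKM against 9.76 and 9.94 in NT (log2 change 0.71, adjusted p = 0.00108). In OsNAC10 it had 6.29 and 6.33 FPKM and a log2 change of -0.57 (adjusted p = 0.00233), which was under the fold required. Os02g0730300 and Os03g0575200, named after their values were seen, were called lower in OsNAC10 only (-0.63 and -0.59), and whether OsNAC10 differed there from the other lines is not reported here.

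Of the other HKT loci, Os04g0607600, described as a cation transporter family protein, was called lower in 3 lines. It had 0.165 and 0.392 FPKM in OsNAC5, 0.262 and 0.240 in OsNAC6, 0.461 and 0.413 in OsNAC9, with 0.771 and 0.845 in OsNAC10 roots, against 1.25 and 1.41 in NT roots. All 8 line libraries were below NT, and in OsNAC10 the change of -0.36 (adjusted p = 0.0194) missed the fold. Os04g0607500, described as HKT4, was also below NT in every line mean and was not called. Of the 4 HKT loci that were tested, Os06g0701700 among them, OsHKT1;5 was the only one with higher means in the lines.

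Among 11 tested potassium channel loci, to which OsAKT1 belongs by function, 1 (9.09%) was called in any line, beside 21.9% of all loci. This was Os02g0817500, a beta subunit, at 52.1 and 48.6 FPKM in OsNAC10 against 74.0 and 78.8 in NT (log2 change -0.59, adjusted p = 0.00782). The other 10 tested channel loci were not called in any line, although some passed on p and missed the fold. Os04g0445000, described as similar to SKOR, was higher in OsNAC9 (0.38, adjusted p = 0.0283) and OsNAC10 (0.39, adjusted p = 0.0171). Os12g0118400 was higher in OsNAC10 (0.34, adjusted p = 0.0348), and Os03g0752300 was lower in OsNAC6 (-0.34, adjusted p = 0.0387).

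Of the cation/H+ antiporters, the family of OsSOS1, 4 of 19 tested loci (21.1%) were called in any line, beside 21.9% of all loci. Os07g0666900, described as a vacuolar Na+/H+ antiporter of salt tolerance, which moves sodium into the vacuole, was called higher in 3 lines. It had 22.2 and 22.0 FPKM in OsNAC5, 21.1 and 23.7 in OsNAC6, 25.4 and 26.2 in OsNAC9, with 19.1 and 17.3 in OsNAC10 roots, against 12.2 and 12.0 in NT roots. No line library overlapped NT, the log2 changes in OsNAC5, OsNAC6 and OsNAC9 were 0.82, 0.83 and 1.03, and that in OsNAC10 was 0.55 (adjusted p = 0.00239), under the fold required. OsHKT1;5 was called in the same 3 lines and was also short of the fold in OsNAC10. The order of the lines was not the same: by mean, Os07g0666900 was highest in OsNAC9 and OsHKT1;5 in OsNAC6. In OsNAC10 against OsNAC9, Os07g0666900 was at -0.48 (adjusted p = 0.00806), under the fold required. OsHKT1;5 was at -0.20 there (adjusted p = 0.339).

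The other antiporters that were called passed in 1 or 2 lines. Os05g0113300, a cation/H+ exchanger, averaged 2.35 FPKM in OsNAC9 against 0.186 in NT (log2 change 1.49, adjusted p = 0.000104). Os11g0648000, a Na+/H+ antiporter homologue, fell in OsNAC6 (-0.86) and OsNAC10 (-0.63), with NT libraries that lay apart at 3.52 and 2.27 FPKM. Os05g0382200, also named after its values were seen, rose in OsNAC9 (0.76) and OsNAC10 (0.80).

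Of 11 tested plasma membrane H+-ATPase loci 2 (18.2%) were called in any line, beside the same 21.9%. Os04g0656100, whose locus also holds a transcript described as non-coding, fell in OsNAC6 (-0.89), OsNAC9 (-0.63) and OsNAC10 (-1.41), with means of 83.9, 100.3 and 59.1 FPKM against 155 FPKM in NT. In OsNAC5 its mean was 114 FPKM and the change of -0.43 did not pass (adjusted p = 0.226). Os08g0241800 rose in OsNAC9 (0.66), at 1.36 and 1.35 FPKM against 0.510 and 0.483 in NT. The 3 regulators listed, homologues of SOS2, SOS3 and CBL1, which govern SOS1 and AKT1 in Arabidopsis, were not called in any line, and their largest change was 0.43 for the SOS3 homologue Os05g0534400 in OsNAC9 (adjusted p = 0.0651).

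**Figure D4:**
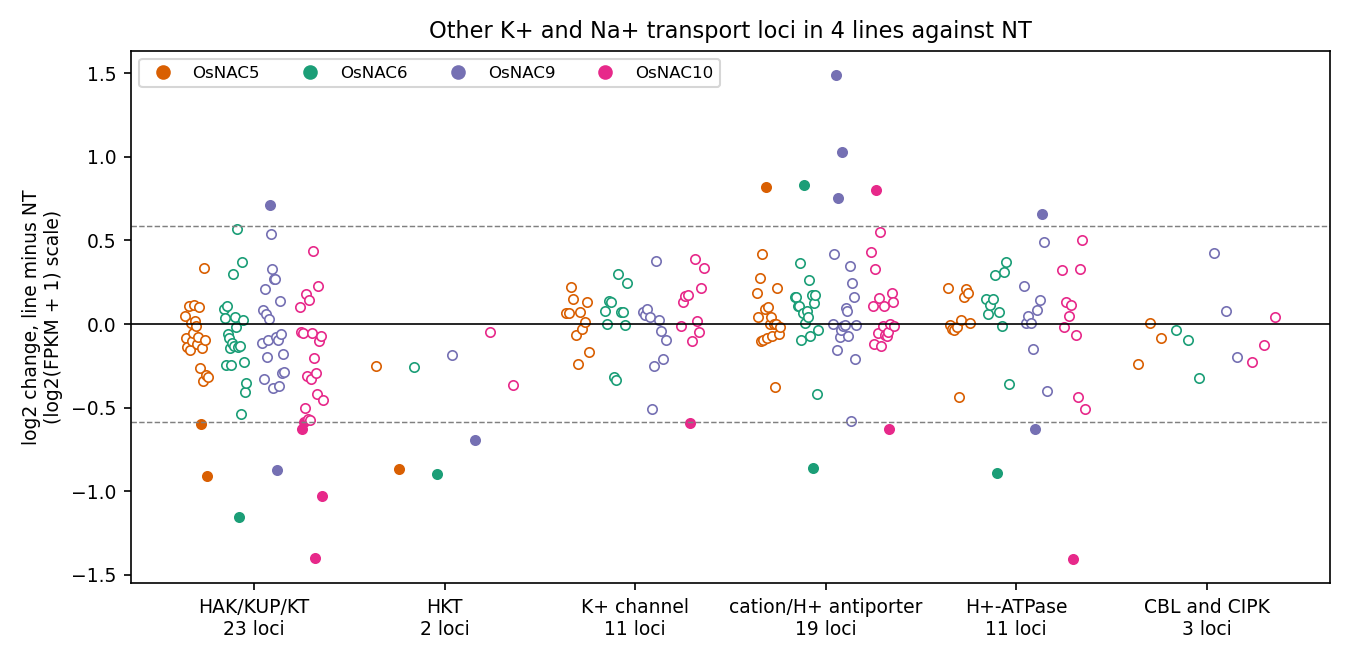
Log2 change, line minus NT on the log2(FPKM + 1) scale, of each of the 69 tested loci of the wider list, by family (horizontal axis) and line (colour). Filled points were called and open points were not, with dashed lines at 1.5 fold. Most loci lie between the dashed lines, and the lowest points are Os04g0656100 and Os07g0669700 in OsNAC10.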

How the data were processed

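FPKM values of 41635 transcripts in 10 root libraries were analysed. The authors deposited FPKM computed after trimming, removal of PCR duplicates and alignment with TopHat to IRGSP-1.0 with RAP-DB annotation. Versions and the treatment of strand in counting are not given in the sources used here, although the library kit was strand-specific. Read counts were not analysed here, so that no counting interval is given. FPKM was summed per locus (37869 loci). The 7954 loci with a 0 in any library were left out. log2(FPKM + 1) of the other 29915 was fitted over all 5 groups with limma 3.58.1 in R 4.3.3 (eBayes with trend, two-sided, Benjamini-Hochberg adjustment over all tested loci). A call required an adjusted p under 0.05 and 1.5 fold. Each line had 2 libraries, so that the spread was shared between groups. Every p-value here comes from this fit, or from the same fit under an alternative named beside the value. Each sets a difference against the spread between libraries.

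The members, the wider list and the markers were chosen with earlier results of these data known. Named loci were the members, Os06g0701700, the 3 loci most correlated with each member and, in each family of the wider list, up to 3 called loci with the largest change. Os07g0150700 was dropped from the list because its description named no CBL-interacting kinase. Alternatives were the pseudocount (0.1), filters, scaling, library weights, the replicate block, the samples fitted, the trend, the main transcript, the fold (2), the unadjusted p and each library left out. Promoter and protein sequences were not analysed here. The procedure was tested on simulated data.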

Additional observations from a re-analysis of the deposited data

Results flagged for a closer look

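The lines differed from each other in several loci outside the 6 members, in the same limma fit. Os06g0701700, the neighbour of Os06g0701600, was lower in OsNAC6 than in OsNAC5 (-0.60, adjusted p = 0.0269). Its difference in OsNAC10 against OsNAC6 was 0.50 (adjusted p = 0.0439), under the fold required and not called. For the named loci of the wider list, only called differences follow. Os06g0270200 was lower in OsNAC10 than in OsNAC5 (-0.69) and OsNAC9 (-1.28), and higher in OsNAC9 than in OsNAC5 (0.60) and OsNAC6 (0.82). Os07g0669700, lower than NT in all 4 lines, was lower in OsNAC10 than in OsNAC5 (-0.80). Os09g0448200 was lower in OsNAC10 than in OsNAC6 (-0.62) and OsNAC9 (-0.85), and higher in OsNAC9 than in OsNAC5 (0.73). Os05g0113300 was lower in OsNAC10 than in OsNAC9 (-1.61), and higher in OsNAC9 than in OsNAC5 (1.22) and OsNAC6 (1.38). Os04g0656100 was lower in OsNAC10 than in OsNAC5 (-0.97) and OsNAC9 (-0.78). All of these are log2 differences on the log2(FPKM + 1) scale.

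Os06g0701600 stood outside the test, and its 1 value above 0 was 0.0215 FPKM in OsNAC9 replicate 1, while both NT libraries were at 0.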

How the results depend on the processing

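No change of a member against NT turned sign. Between lines, OsHAK1 turned sign with the main transcript, to -0.94 in OsNAC10 against OsNAC5 and -0.60 in OsNAC10 against OsNAC6, where the locus sums gave 0.01 and 0.25. The other 12 sign changes between lines involved differences of at most 0.09 in size. Against NT, 3, 3, 3 and 2 members were called in OsNAC5, OsNAC6, OsNAC9 and OsNAC10. With 2 fold required the counts were 0, 0, 1 and 0. With the replicate block they were 3, 3, 3 and 2. Replicate differences of 2 groups correlated between -0.52 (OsNAC6 and OsNAC9) and 0.33 (OsNAC5 and OsNAC9), above 0.1 in 3 of 10 pairs. Whether libraries of different groups shared a batch cannot be told from these values and was not tested. In each of the 4 lines, the number of members called changed for at least 1 choice of a library left out. With the main transcript 1 member, OsHAK1, was called in OsNAC10 against OsNAC9 and 1 in OsNAC10 against OsNAC5. The next counts cover, for each tested member and Os06g0701700, the changes against NT and the largest difference between lines. They leave out the OsHAK1 calls just named. Under an alternative, 616 of these values kept their side of the threshold, 34 lost it and 5 gained it. The cause was not tested. Part of the 616 was fixed by design: requiring 2 fold cannot add a call, and an unadjusted p cannot remove one. Leaving out a library of a line not compared leaves the estimate as it was. In the wider list, 2 fold left 0, 1, 2 and 3 loci called in the 4 lines, and a pseudocount of 0.1 gave 10 in OsNAC6 and 13 in OsNAC10. A mean of at least 1 FPKM left 4 in OsNAC9, and quantile normalization, or leaving out NT replicate 1, left 5 in OsNAC10. Median centring moved the share of called loci that were higher in OsNAC10 from 31.8% to 47.6%, and its median change over all loci to 0.11. With 2 libraries per group, and without read counts, changes of OsSOS1 within its 95% intervals were not resolved.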
